A study of Mus musculus with 6 samples.

Results

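The resting transcriptome of wild-type mouse embryo fibroblasts was described from the 3 lines whose labels call their chromosomes stable, out of 6 lines in the series. Mouse embryo fibroblasts are connective tissue cells grown out of dissociated embryos and used at low passage. Of the stable lines, 2 were BubR1+/+ and 1 was CDC20+/+. BubR1 is a kinase of the spindle checkpoint, and CDC20 activates the ubiquitin ligase that starts anaphase. The other lines, labelled unstable, were BubR1H/H in 2 cases and CDC20AAA/AAA in 1 case, and the labels mark the mutated allele as hypomorphic and the other locus as wild type. All lines had been grown for 2 passages in DMEM with 10% FCS and 5 mM glutamine, under a common treatment. The titles carry the numbers 9515, 9938 and 10074, and each number belongs to 1 stable and 1 unstable line (9515 and 9938 BubR1, 10074 CDC20). What the numbers stand for, and whether each line is its own embryo, is not given in the labels. Each line was measured on 1 array, so a p-value here measures only the spread between these arrays.

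Fibroblasts secrete and remodel fibrillar collagens, fibronectin and other matrix proteins, and they carry a contractile actin cytoskeleton. A culture from a whole embryo mixes mesenchyme of different body regions, which keeps regional Hox and other homeobox gene expression in culture. Other attached cells of the embryo, tissue macrophages among them, can be carried along.

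Values were GCRMA levels on the log2 scale, on which a difference of 1 is a 2-fold change. The 20380 probe sets with a single gene symbol gave 12393 genes. Brightness depends on how well a probe binds, so levels were compared between lines for the same gene, and a family's median describes signal and not transcript number. Array medians were 6.156 to 6.196 in the stable lines. A log2 value of 4 served as the floor, and 64.2% to 64.7% of probe sets reached it on the 6 arrays. Bub1b, the gene of BubR1, measured 7.81, 8.51 and 7.61 in stable lines 9515, 9938 and 10074, against 6.43 and 7.00 in unstable lines 9938 and 10074 and a still lower value in unstable line 9515. Cdc20 measured 10.85, 11.15 and 10.83 in the stable lines and 10.74, 10.34 and 10.03 in the unstable ones. Neither gene passed the limma comparison of stable against unstable lines given below, which called 0 of 8382 genes.

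The 3 wild-type cultures shared most of their transcriptome. In all 3 stable lines 8063 genes (65.1%) reached the floor, 3851 were below it in every line, and 479 reached it in 1 or 2 lines. The median level over the 12393 genes was 6.92. The 20 genes of highest signal fell into a few groups. Lgals1, which encodes the secreted lectin galectin-1, had the highest mean at 14.32. Another 9 of the 20 belong to protein synthesis: the ribosomal proteins Rpl35, Rpl4, Rpl11, Rps20, Rps29, Rps28, Rps10 and Rps24 and the elongation factor subunit Eef1b2. Tmsb4x and Tmsb10, which bind actin monomers, Actb, Tpm2 and the intermediate filament gene Vim stand for the cytoskeleton. Sparc is a matrix glycoprotein, Fth1 the iron store ferritin, Hspa8 and Hspa9 chaperones, and Ran the GTPase of nuclear transport. Each of these 20 had a mean of at least 13.32 (Hspa9), and none differed between title numbers in the test described below.

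Families of the cytoskeleton, translation, folding and energy machinery carried the highest median signals. Cytosolic ribosomal proteins had a median level of 12.50, with 46 of 48 members at the floor in all 3 lines. Tropomyosins, which coat actin filaments, had a median of 12.70 over 4 members, and actins had 12.58 over 6. The CCT chaperonin, which folds actin and tubulin, lay at 12.26, and the ATP synthase at 12.06. Mitochondrial ribosomal proteins lay lower, at 9.76, yet all 74 members measured reached the floor in every stable line. At the other end were receptors of the sensory epithelia and enzymes of liver and placenta. None of 31 olfactory receptors, 35 taste and vomeronasal receptors or 20 UDP-glucuronosyltransferases and sulfotransferases reached the floor in any stable line, and their medians were 1.85, 1.89 and 1.95. Of 61 cytochromes P450, 7 reached the floor in all 3 lines. The brightest of these, Cyp1b1, a steroid and xenobiotic hydroxylase found outside the liver, measured 11.94, 11.62 and 11.58 in lines 9515, 9938 and 10074. Of 18 claudins, the strand proteins of tight junctions, Cldn1 alone reached the floor, at 5.83, 6.43 and 6.45.

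The fibroblast label held in all 3 cultures. Of 31 fibroblast and mesenchyme markers measured, 30 reached the floor in every stable line, and Tcf21 did not. Their median was 12.05, above 96.2% of all genes. Vim measured 13.54, 13.46 and 13.72 in lines 9515, 9938 and 10074. Col1a1, which encodes the alpha-1 chain of type I collagen, measured 12.54, 12.59 and 12.81. Col1a2, its alpha-2 partner, measured 13.27, 13.27 and 13.20. The 3 lines thus lay within 0.27 of each other for all of these markers. Across the list the median distance from highest to lowest line was 0.27, and 1 of the 30 members was 2-fold apart. That member was Dcn, the collagen-binding proteoglycan decorin, at 8.28, 9.72 and 10.72. Line 9515 was lowest for Dcn in the stable set and, at 9.68 against 10.31 and 10.55, in the unstable set, but Dcn did not pass the test between title numbers (adjusted p = 0.114). None of the 30 members tested passed this F test, and 2 passed the contrast of 10074 against 9515. Thy1, a surface glycoprotein of fibroblasts, measured 10.78, 11.15 and 11.56, a fitted difference of 0.69 (SE 0.10). Twist2, a mesenchymal transcription factor, measured 10.45, 10.86 and 11.18, a fitted difference of 0.65 (SE 0.10), and 10074 was highest for both (limma adjusted p = 0.0361 and 0.041). Smooth muscle and pericyte genes were also bright, with 13 of 16 at the floor in every line and a median of 9.88. Acta2, the smooth muscle actin of contractile fibroblasts, measured 13.17, 13.21 and 13.49, and the calponin-like Tagln 12.13, 12.21 and 12.66. Myh11, the heavy chain of mature smooth muscle, had 7.01, 5.75 and 7.06. None of the 15 members tested passed the F test, and 1 passed a contrast: Mcam, an adhesion molecule of pericytes, at 10.30, 10.69 and 10.86, was higher in 10074 than in 9515 (difference 0.70, SE 0.12, adjusted p = 0.0418).

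**Figure D1:**
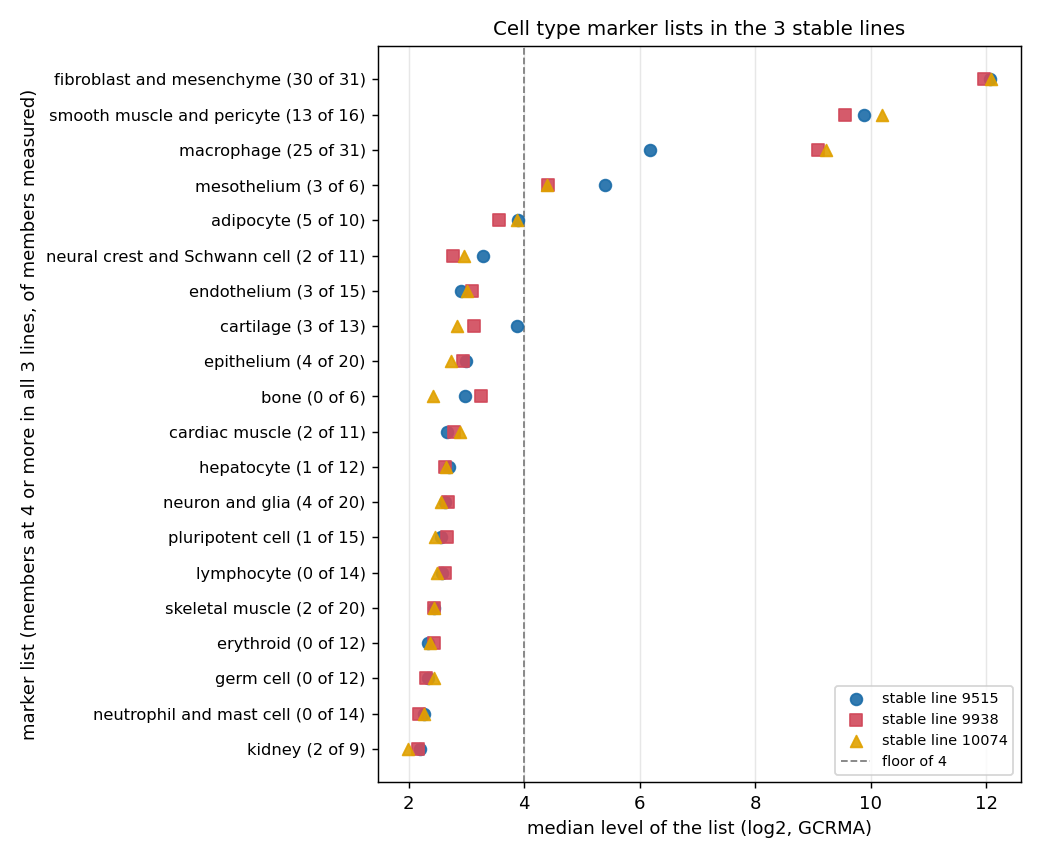
Median log2 level (x axis) of each cell type marker list (y axis) in stable lines 9515 (circles), 9938 (squares) and 10074 (triangles), with the dashed line at the floor of 4 and, in brackets, the members at the floor in all 3 lines of those measured. Fibroblast and smooth muscle lists lie together at 12.05 and 9.88, macrophage markers split into 6.18 for line 9515 and 9.08 and 9.23 for the others, and most other lists lie below 4.

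Most other lineages were at or below the floor. No member reached it in all 3 lines among 6 bone, 12 erythroid, 14 lymphocyte, 14 neutrophil and mast cell, and 12 germ cell genes. Endothelium had 3 of 15 members there. The brightest was Flt1, a receptor of vascular growth factor, at 10.10, 10.60 and 10.03, while the endothelial cadherin Cdh5 and the adhesion molecule Pecam1 did not reach the floor in any line. Of 15 genes of pluripotent cells Klf4 alone reached it in all 3 lines, at 9.90, 9.91 and 10.47; Klf4 is also expressed in differentiated connective tissue and epithelium. Of 20 skeletal muscle genes, Acta1 and Des reached it, at means of 8.22 and 6.15, whereas the myogenic factors Myod1 and Myog were below it. Of 20 genes of neurons and glia 4 reached it. The highest, Stmn2, a tubulin-binding protein, measured 10.48, 8.66 and 8.65 in the stable lines and 9.91, 7.71 and 8.86 in the unstable ones. Line 9515 was thus the highest in both sets, and Stmn2 passed the test between title numbers (adjusted p = 0.0435).

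The distance between the highest and the lowest stable line was small for most genes. Among 8341 genes with a mean at the floor, its median was 0.35 on the log2 scale, the 90th percentile 0.96 and the 99th 2.67. At least 2-fold separated the lines for 778 genes (9.33%), at least 4-fold for 220 and at least 8-fold for 53. Line 9515 stood apart most often. It was at least 2-fold below both other lines, which were themselves within 2-fold, for 209 genes, and above both for 114. The same counts were 47 and 11 for line 9938 and 25 and 37 for line 10074. Without line 9515, 231 genes were 2-fold apart, against 517 without line 9938 and 511 without line 10074.

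The unstable line of the same number gave each title number another array. In a limma fit to all 6 arrays, with stability as a term, 497 of 8382 genes (5.93%) differed between title numbers at an adjusted p under 0.05. The contrasts of the same fit placed most of them on 9515. Relative to 9515, 9938 was higher for 221 genes (2.64%) and lower for 234 (2.79%), and 10074 was higher for 235 (2.80%) and lower for 201 (2.40%). Between 10074 and 9938, 3 genes were higher in 10074 (0.0358%) and 1 lower (0.0119%). The first were the Y-linked Eif2s3y, Kdm5d and Uty. The last was Lhx8, a homeobox gene of the forebrain and jaw mesenchyme, at 7.00, 7.26 and 5.47 in the stable lines. Of the 778 genes, 413 (53.1%) had the same highest and the same lowest number among the unstable lines, against 2804 of 8341 (33.6%) overall. For 10074, the title number and the locus studied cannot be told apart, since it alone is a CDC20 number. The 497 calls needed both lines of 9515: without its stable line 1 gene passed, and without its unstable line 1 gene passed, in fits with 1 residual degree of freedom. Leaving out a line of 9938 or 10074 gave 508 to 559. Of the contrasts, 9938 against 9515 gave 283 calls in place of 455 without unstable line 9938, and 10074 against 9515 gave 212 in place of 436 without stable line 10074. The 4 calls of 10074 against 9938 became 10 without stable line 10074, 13 without unstable line 9938 and 2 without either 9515 line. Without either 9515 line, 0 members of every list and family named below passed, apart from Eif2s3y in the lists that hold it.

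Among lists and families with at least 5 members at the floor, macrophage genes had the widest median range, at 2.58. Of 31 markers measured, 25 reached the floor in every stable line, and 3 were below it in all of them: the integrin Itgam, the chemokine receptor Ccr2 and the oxidase subunit Cybb. The list's median was 6.18 in line 9515, 9.08 in 9938 and 9.23 in 10074. It was 6.29, 9.51 and 7.96 in the unstable lines of the same numbers. The sum of the 31 log2 levels ran from 199.4 to 270.7 in the stable and from 195.5 to 276.6 in the unstable lines, lowest in 9515 each time. Csf1r, the receptor for macrophage colony-stimulating factor and a defining marker of the lineage, measured 8.43, 10.02 and 10.21. In the unstable lines it measured 7.84, 10.15 and 9.02, so 9515 was lowest in both sets, although Csf1r did not pass the test (adjusted p = 0.0571; 7 of 15 alternative settings passed it). Of 28 markers tested, 22 (78.6%) differed between title numbers, beside 5.93% of all genes. In stable line 9515, 25 markers reached the floor, against 28 in stable lines 9938 and 10074. The filter thus kept some through the lines where they were higher, and the share is a description. Every contrast that passed had 9515 at the lower end: 26 markers were higher in 9938 and 21 in 10074.

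The surface and complement genes of tissue macrophages showed the widest gaps. Mrc1, the mannose receptor, measured 6.52, 10.54 and 10.24 in the stable lines and 5.91, 10.58 and 8.60 in the unstable lines. Its difference between 9938 and 9515 was 4.35 (SE 0.39, adjusted p = 0.0117), and between 10074 and 9515 it was 3.20 (SE 0.39, adjusted p = 0.0234). C1qa, a chain of the complement component that binds immune complexes, measured 4.70, 8.59 and 8.78 in the stable lines and 4.78, 8.87 and 7.42 in the unstable ones. The 9515 lines lay clearly below all the others for both genes. Adgre1, which encodes the F4/80 antigen, measured 6.18, 9.98 and 9.93. Ptprc, the leukocyte phosphatase CD45, measured 5.48, 9.06 and 8.79. Both passed the test (adjusted p = 0.0334 and 0.0268). Lyz1 and Lyz2, the lysozymes, were already bright in 9515, at 12.21 and 10.51, and higher in the others, at 13.09 and 12.96 for Lyz1 and 12.18 and 12.28 for Lyz2. The lysozyme genes are near copies, so their probe sets may share signal. Spi1, the transcription factor PU.1 that specifies the myeloid lineage, lay near the floor at 2.96, 4.34 and 4.44 and did not pass (adjusted p = 0.0783).

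**Figure D2:**
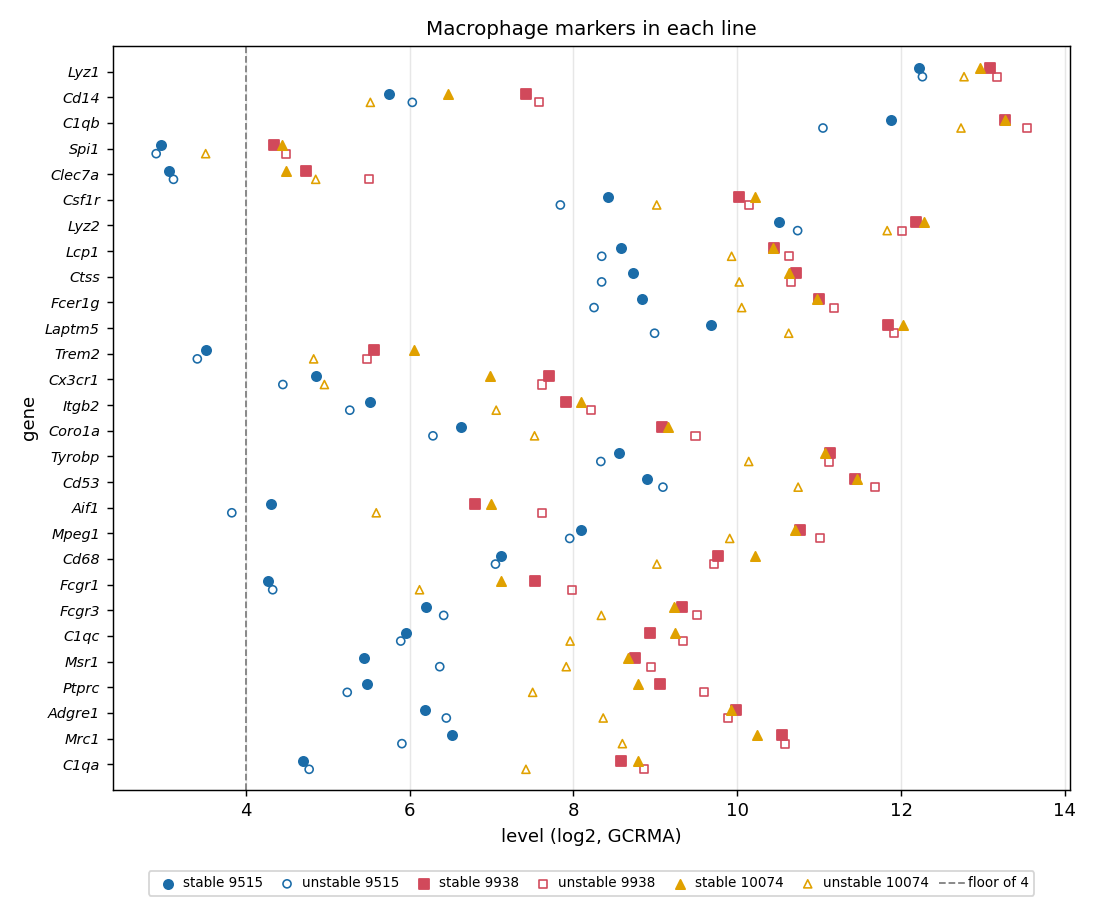
Log2 level (x axis) of the 28 macrophage markers that reached the floor of 4 (dashed line) in at least 1 stable line (y axis, ordered by the difference of line 9515 from the other stable lines), for stable lines (filled) and unstable lines (open) of numbers 9515, 9938 and 10074. Line 9515 lies left of the other stable lines for every marker, and for Mrc1 the gap is 6.52 against 10.54 and 10.24.

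In bulk RNA, fewer macrophages and less macrophage RNA per cell cannot be told apart. Some genes outside the list were also lowest in 9515. They come from the 20 genes with the widest stable range among those that passed with the same highest and lowest number in both sets, a choice that used their order. They include the Fc receptor Fcgr2b (3.16, 7.05 and 5.62) and the lectin Clec4n (4.17, 8.35 and 7.85). They also include Cd93 (5.58, 9.33 and 8.94), a receptor of myeloid and endothelial cells, and the chemokine receptor Cxcr4 (4.32, 7.64 and 7.46). Line 9515 was lowest for each of them, beside macrophage list medians of 6.18, 9.08 and 9.23. Ms4a6b, Ms4a6c, Ms4a6d and Ms4a4d, of a tetraspanning family with close copies, had stable ranges of 4.47, 4.04, 3.48 and 3.56, again with 9515 lowest. These values were read out with results known and are a description.

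Promoter sequences of the markers that moved together are shown because the binding core of PU.1 is a simple purine run. RefSeq promoters on GRCm38.p6 were matched for 23 of the 31 macrophage genes, and the 250 bases before the start site were searched on both strands. The core GAGGAA occurred in 14 of the 23 (60.9%), beside 23.1% of 27025 promoters of the same length and 5 of 42 (11.9%) of the cytosolic ribosomal proteins. Of the other motifs, TATAAA occurred in 3 of the 23 and in 3504 of all promoters, and CCAAT in 43.5% of the 23 and 34.5% of all. An interferon response motif, GAAA followed by any 2 bases and GAAA again, occurred in 3 of the 23 and in 3.04% of all. TGACGTCA and CACGTG occurred in 0 of the 23, beside 1.62% and 6.05% of all promoters. The motifs as spelled do not contain one another. A match is a string of letters and was not tested as a site. Below, capitals mark GAGGAA or its reverse complement in the first 3 promoters. In 2 promoters of cytosolic ribosomal proteins they mark CCAAT or its reverse complement. CCAAT occurred in 12 of 42 promoters of that family (28.6%), a lower share than the 34.5% of all promoters. Among those that hold GAGGAA, the macrophage promoters shown are of genes with the widest stable ranges. Among those that hold CCAAT, the ribosomal ones are of genes with the highest means. The wide ranges of the first 3 thus follow from the choice. All are written 5′ to 3′ on the gene's strand.
Mrc1, chr2:14229164-14229413, plus strand: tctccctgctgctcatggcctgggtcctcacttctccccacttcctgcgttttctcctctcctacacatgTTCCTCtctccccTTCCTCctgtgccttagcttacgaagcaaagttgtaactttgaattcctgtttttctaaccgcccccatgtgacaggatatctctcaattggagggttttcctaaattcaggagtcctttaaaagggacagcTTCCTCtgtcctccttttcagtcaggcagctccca
Ptprc, chr1:138175306-138175555, minus strand: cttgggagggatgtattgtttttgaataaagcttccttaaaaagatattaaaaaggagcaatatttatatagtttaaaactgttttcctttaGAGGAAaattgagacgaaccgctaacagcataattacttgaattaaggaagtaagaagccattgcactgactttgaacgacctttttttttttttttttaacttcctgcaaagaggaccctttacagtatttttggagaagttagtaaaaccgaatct
C1qc, chr4:136892915-136893164, minus strand: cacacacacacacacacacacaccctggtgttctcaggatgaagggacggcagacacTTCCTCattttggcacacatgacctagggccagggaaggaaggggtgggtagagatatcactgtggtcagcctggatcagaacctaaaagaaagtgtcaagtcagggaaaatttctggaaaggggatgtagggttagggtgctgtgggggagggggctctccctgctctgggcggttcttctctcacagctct
Rpl35, chr2:39005132-39005381, minus strand: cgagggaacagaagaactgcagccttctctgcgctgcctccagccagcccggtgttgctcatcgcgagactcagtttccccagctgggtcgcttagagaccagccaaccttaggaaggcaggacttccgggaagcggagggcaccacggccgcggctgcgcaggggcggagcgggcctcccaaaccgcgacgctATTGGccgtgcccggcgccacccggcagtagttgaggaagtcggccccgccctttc
Rps24, chr14:24490428-24490677, plus strand: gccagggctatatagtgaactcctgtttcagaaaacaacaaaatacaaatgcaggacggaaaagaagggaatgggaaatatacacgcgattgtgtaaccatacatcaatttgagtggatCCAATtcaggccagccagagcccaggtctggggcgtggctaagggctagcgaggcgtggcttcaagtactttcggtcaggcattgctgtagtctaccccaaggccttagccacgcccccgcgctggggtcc

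The Mrc1 promoter holds 3 matches and those of Ptprc and C1qc hold 1 each. Ptprc and C1qc were lowest in line 9515, like Mrc1, with C1qc at 5.96, 8.94 and 9.24. Rpl35 (13.50, 13.48 and 13.85) and Rps24 (13.33, 13.29 and 13.45) stayed within 0.38 over the 3 stable lines. Capitals mark a single motif per promoter, so a motif in lower case is not absent. The Rpl35 sequence also holds GAGGAA, and the Mrc1 sequence also holds ATTGG, the reverse complement of CCAAT.

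Chemokines and innate receptors varied in both directions. Of 19 chemokines tested, 9 (47.4%) differed between title numbers, beside 5.93% of all genes, and 0 without either 9515 line. Of 31 chemokines measured, 15 reached the floor in every stable line, so the filter kept some through the lines where they were higher. Nothing is read from the count of 9 of 19. Ccl12, a monocyte attractant, measured 3.92, 6.32 and 6.77 in the stable lines and 4.18, 7.43 and 6.73 in the unstable ones. Ccl3 measured 4.91, 7.08 and 6.98, and Ccl9, made by myeloid cells, 6.49, 8.32 and 8.24. Line 9515 was lowest for all 3, as it was for the macrophage list. The chemokines of highest signal did not share this pattern. Cxcl12, a product of stromal cells, measured 11.34, 10.81 and 11.03 and did not pass (adjusted p = 0.0797). Ccl2, made by fibroblasts as well as macrophages, measured 11.39, 12.06 and 12.05 and did not pass either (adjusted p = 0.0836). Cxcl14 and Cxcl15 passed with 9515 highest, at 10.31, 9.31 and 10.12 for Cxcl14 and 5.74, 3.61 and 4.30 for Cxcl15. Another Cxcl14 probe set had 10074 highest, at 8.83, 7.98 and 8.99. Among Toll-like receptors, 3 of 6 tested passed, beside 5.93% of all genes. Of 9 measured, 4 reached the floor in every stable line, so the filter kept some through the lines where they were higher. Nothing is read from this count. Tlr7, a sensor of single-stranded RNA, was lowest in 9515 (3.28, 5.66 and 5.81), and so was Tlr2, a sensor of bacterial lipopeptides (5.66, 7.16 and 6.88). Tlr4, the lipopolysaccharide receptor, passed with 9515 highest, at 8.16, 7.35 and 6.53 (adjusted p = 0.0355), but a dimmer Tlr4 probe set measured 4.73, 4.74 and 4.42. Tlr3, a sensor of double-stranded RNA, did not pass, at 8.12, 7.67 and 8.21. Mmp12, the macrophage elastase, measured 3.70, 6.09 and 6.75 and passed (adjusted p = 0.0121), while Mmp14 and Mmp2, the matrix proteases of highest signal, did not. Among 12 integrins tested 4 passed, beside the same 5.93%. Of the integrins 9 reached the floor in every stable line, so nothing is read from this count either. Of those that passed, Itgb2, the leukocyte beta chain, was lowest in 9515 (5.52, 7.91 and 8.09). Itga3, a laminin receptor of epithelium, also passed and was highest there (6.78, 4.75 and 5.00). Beside each of these groups stand the macrophage markers, of which 27 of 27 with a mean at the floor were lowest in 9515, and the part they have in the result was not tested.

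Several cartilage genes were highest in 9515, where macrophage genes were lowest. Of 13 measured, 3 reached the floor in every stable line and 5 had a mean at it. Members such as Col2a1 and Acan were kept largely by their level in the 9515 lines, so nothing is read from the count of 4 of 5 that passed, beside 5.93% of all genes and 0 without either 9515 line. Col2a1, the type II collagen of cartilage, measured 7.12, 4.47 and 3.05 in the stable lines and 7.73, 3.47 and 3.20 in the unstable lines. Its difference between 10074 and 9515 was -4.30 (SE 0.38, adjusted p = 0.013). Acan, the cartilage proteoglycan aggrecan, measured 6.34, 4.36 and 3.39 in the stable lines and 6.11, 3.34 and 2.90 in the unstable ones. For both genes each 9515 line lay above all 4 other lines. Col11a1, a minor fibrillar collagen, was bright throughout, at 11.20, 9.84 and 9.55 (adjusted p = 0.0348). Sox9, the transcription factor that drives chondrocyte fate, did not follow, at 7.56, 8.46 and 8.22 (adjusted p = 0.112). Matrix genes of cartilage such as Matn1 and Comp were below the floor in all stable lines.

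Regional transcription factors differed between cultures in the same way as cartilage for several members. Of 41 limb and axial position genes, 15 reached the floor in every stable line, and 8 of 18 tested (44.4%) differed between title numbers, beside 5.93% of all genes. Foxd1 is a forkhead factor of kidney stroma and limb mesenchyme. It measured 6.91, 4.54 and 3.26 in the stable lines and 7.20, 3.34 and 2.85 in the unstable lines. Foxd1 was kept for the test largely by its level in the 9515 lines, so nothing is read from the count of 8 of 18. Foxc1, which acts in paraxial mesoderm and neural crest mesenchyme, measured 9.40, 7.36 and 6.58, with a difference of -2.75 (SE 0.25, adjusted p = 0.013) between 10074 and 9515. Msx1 and Msx2, homeobox genes of limb and craniofacial mesenchyme, measured 8.43, 6.68 and 6.40, and 6.20, 4.41 and 5.22. Line 9515 was the highest for these 4 genes. Pax1, a factor of the sclerotome from which vertebrae form, reached the floor in 9515 alone, at 5.65 against 3.23 and 2.92, and at 5.61 in the unstable 9515 line against 3.31 and 2.94. It was not tested because too few arrays reached the floor. En1, a factor of ventral limb ectoderm and of dermis, ran the other way, at 6.12, 6.75 and 7.58 (adjusted p = 0.0325). Tbx15 (9.79, 10.35 and 10.32) and Meis2 (9.83, 9.99 and 9.91), both mesenchymal factors of high signal, did not pass the test.

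Of 31 Hox genes 15 reached the floor in all stable lines and 7 of 20 tested (35.0%) differed between title numbers, beside 5.93% of all genes. The filter thus kept some through the lines where they were higher, and nothing is read from this count. It was 4 with a filter at 6, which keeps fewer genes, and 1 without the term for stability. Members of the HoxD and HoxA clusters were among those highest in 9515. Hoxd10, a gene of the posterior trunk and limb, measured 8.98, 7.51 and 8.0, with the same order in the unstable lines at 8.63, 7.14 and 7.73 (adjusted p = 0.0134). Hoxa3 measured 5.94, 4.62 and 4.77 (adjusted p = 0.0298). The 3 HoxB members that passed were highest in 10074, among them Hoxb4 at 6.11, 6.57 and 7.44 (adjusted p = 0.02) and Hoxb9 at 7.91, 8.63 and 8.93 (adjusted p = 0.0342). Hoxc13, the most 5′ gene of its cluster and known from hair and nail, was above the floor in 10074 alone, at 5.88 against 3.38 in 9938. The Hox genes of highest signal, Hoxc8 and Hoxd9, measured 10.29, 10.27 and 11.31, and 9.43, 9.82 and 10.27, and neither passed the test. Without either 9515 line, 0 limb and axial genes and 0 Hox genes passed.

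**Figure D3:**
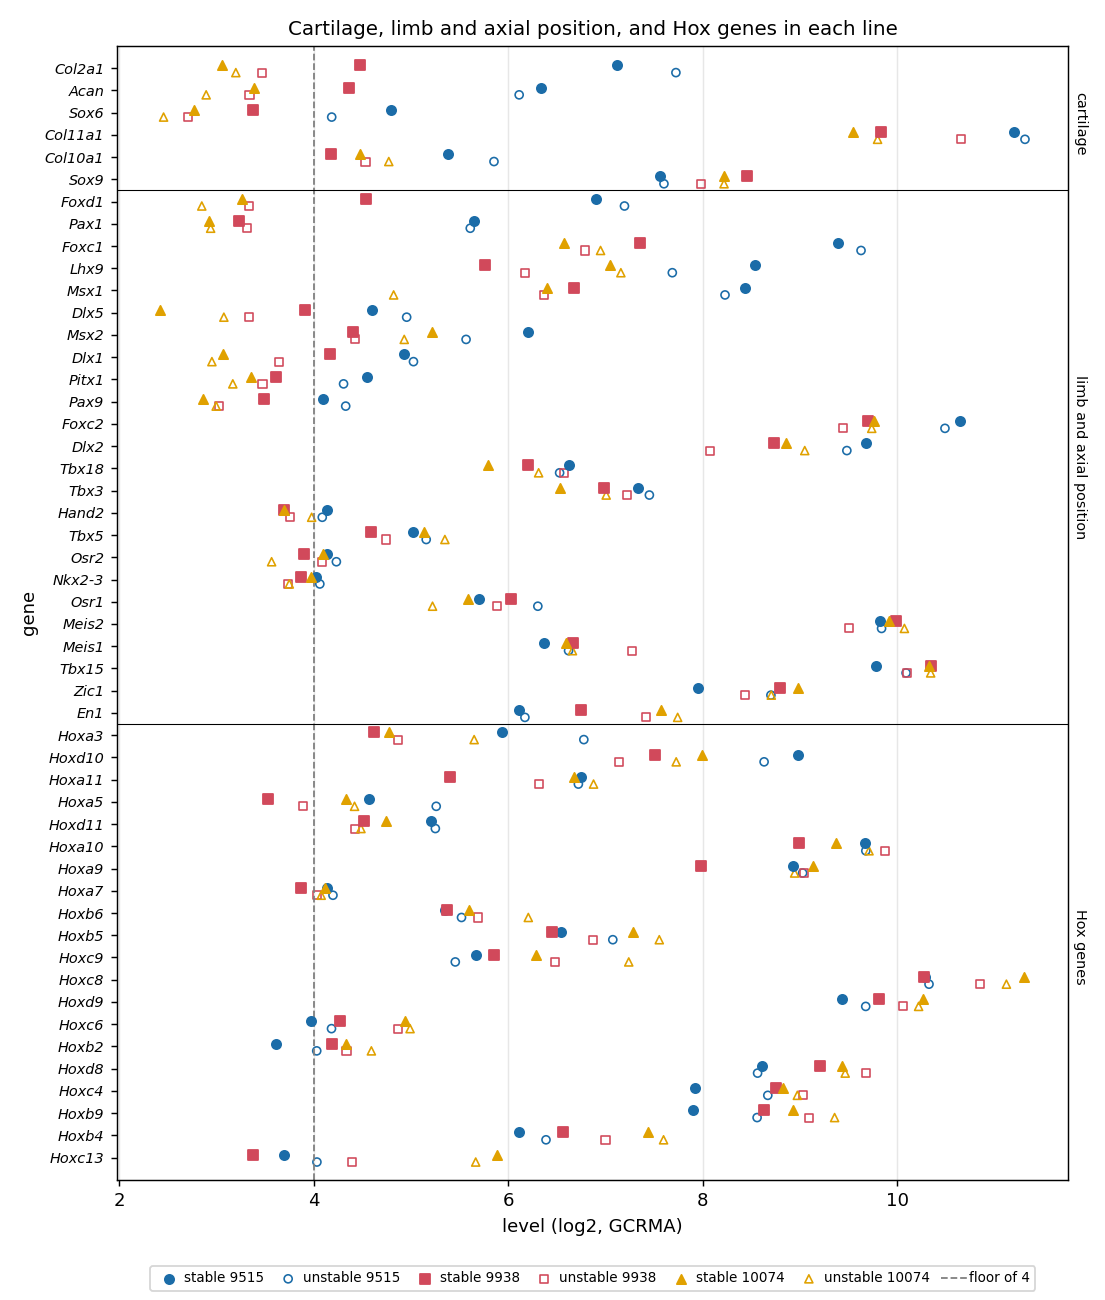
Log2 level (x axis) of cartilage, limb and axial position, and Hox genes that reached the floor of 4 (dashed line) in at least 1 stable line (y axis, ordered within each block by the difference of line 9515 from the other stable lines), for stable (filled) and unstable (open) lines of each number. In the cartilage block Col2a1 of line 9515 lies at 7.12 against 4.47 and 3.05, and among the Hox genes Hoxd10 is highest in 9515 and Hoxb4 highest in 10074.

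Few epithelial genes reached the floor in every stable line, 4 of 20. Of 6 mesothelial genes measured, 3 did so, and all 6 reached it in some stable line. Of 20 epithelial genes 7 had a mean at the floor, and 4 of these 7 passed, beside 5.93% of all genes and 0 without either 9515 line. Krt7 and Krt8 were above the floor in 9515 alone among the stable lines, so nothing is read from that count. Lama5, a laminin chain of basement membranes, measured 7.48, 5.21 and 5.87, and the desmosomal Pkp1 7.45, 6.34 and 5.83. Krt7 and Krt8, keratins of simple epithelium, measured 5.03, 3.59 and 3.88, and 4.68, 3.90 and 3.45. The epithelial cadherin Cdh1 and the adhesion molecule Epcam, which define epithelium, were below the floor in all 3 stable lines. Msln, the mesothelial surface protein mesothelin, measured 5.75, 3.89 and 3.93, with 6.07, 3.97 and 3.55 in the unstable lines. Bmp4, a bone morphogenetic protein of mesenchyme and epithelium, measured 9.80, 7.61 and 7.66 (adjusted p = 0.0175), and Penk, the enkephalin precursor, 8.26, 4.15 and 6.38 (adjusted p = 0.0208). All these genes were highest in the line that was lowest for macrophage markers.

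Fat cell genes were split. Of 10 adipocyte genes measured 5 reached the floor, 3 of 5 tested differed between title numbers, beside 5.93% of all genes, and 0 did so without either 9515 line. Lpl, the lipase that both fat cells and macrophages make, was lowest in 9515, at 8.27, 10.26 and 10.63 (adjusted p = 0.0214). Fabp4, a fatty acid carrier of the same cells, was highest in 9515, at 9.41, 7.44 and 8.46 (adjusted p = 0.0166). Pparg, the regulator of fat cell fate, measured 7.06, 6.22 and 6.95 (adjusted p = 0.0273). Adiponectin (Adipoq) and perilipin (Plin1) were below the floor.

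Dividing-cell genes were expressed in every culture and varied moderately. All 34 mitosis and G2/M genes reached the floor in the 3 stable lines, with a median level of 9.88 and a median range of 0.60. Line 9938 was the highest for most. Mki67, the Ki-67 proliferation antigen, measured 11.23, 11.82 and 11.53, and the passenger protein gene Birc5 measured 12.54, 12.85 and 12.42. Of 34 tested, 4 (11.8%) passed, beside 5.93% of all genes. Among them was the checkpoint kinase Ttk at 8.55, 9.15 and 7.70 (adjusted p = 0.0425), where 10074 was lowest. DNA replication genes had a median range of 0.52, and 2 of 29 (6.9%) passed, near the 5.93% of all genes. Their calls were 0 without the term for stability and 0 or 1 with any single line left out. Mitosis calls also fell to 0 to 2 without a line of 9938 or 10074, and were 0 without either 9515 line and 0 without the term for stability.

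Interferon-response genes lay low, with 16 of 29 at the floor in every stable line and a median of 4.85, and 2 of 20 tested (10.0%) passed, beside 5.93% of all genes. This count was 7 with a trended, robust prior and 0 without the term for stability. It also moved in both directions when single lines were left out. Of 18 members with a mean at the floor, 13 had their highest stable level in 10074, 4 in 9515 and 1 in 9938. Igtp, an interferon-induced GTPase, measured 4.68, 5.30 and 6.22 in the stable lines and 5.40, 5.86 and 8.07 in the unstable ones, and did not pass (adjusted p = 0.0553). Trim30a, an interferon-induced TRIM protein of leukocytes outside this list, measured 4.66, 7.85 and 8.70 in the stable lines and 4.89, 7.79 and 10.50 in the unstable ones (adjusted p = 0.0214). Of major histocompatibility class I genes, H2-D1 differed between title numbers, at 9.87, 10.33 and 10.72 (adjusted p = 0.0492), and B2m, the shared light chain, did not pass, at 12.80, 12.85 and 13.12. Class I genes have close copies, so their signals are uncertain.

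Sex-linked transcripts gave the widest ranges of any genes. Eif2s3y, a Y-linked translation factor subunit, measured 11.68, 2.20 and 11.25 in the stable lines and 11.71, 2.07 and 11.56 in the unstable lines. Kdm5d, a Y-linked histone demethylase, measured 8.53, 1.61 and 8.52, and Uty, another, measured 7.14, 1.77 and 6.70. Xist, the RNA that coats the inactive X, measured 2.39, 11.16 and 2.48. Line 9938 thus carried Xist and no Y-linked signal above the floor, and the other stable lines the reverse, so sex and title number cannot be told apart for 9938. Eif2s3x and Kdm6a, which escape X inactivation, were highest in 9938, at 11.69, 12.05 and 11.27 for Eif2s3x and 8.68, 9.14 and 8.18 for Kdm6a (adjusted p = 0.044 and 0.0355). By chromosome, the median difference between stable lines over the genes of an autosome stayed within -0.058 and 0.077 in every pair of lines. On the X, the median differences over 263 genes were -0.052 for 9938 minus 9515, -0.096 for 10074 minus 9515 and -0.010 for 10074 minus 9938.

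Housekeeping and cytoskeletal families varied little between cultures. The 13 reference genes measured had a median level of 12.28 and a median range of 0.28, and 0 of 13 passed the test. Their ranges ran from 0.04 to 0.56. Actb measured 13.43, 13.49 and 13.35, and Tbp, the TATA-binding protein, had the widest gap, at 7.78, 8.11 and 7.55. Translation factors had a median range of 0.20, tubulins 0.19, actins 0.21, tropomyosins 0.15, mitochondrial ribosomal proteins 0.25 and cytosolic ones 0.28. Rpl39l, a ribosomal protein copy of restricted expression, measured 10.09, 11.18 and 11.63 (adjusted p = 0.0176), the only one of 46 cytosolic members tested that passed the F test. Psmb8, an immunoproteasome subunit, measured 4.74, 5.79 and 5.89 (adjusted p = 0.0175), the only one of 37 proteasome subunits tested that passed the F test. None of 33 complex I subunits and none of 17 ATP synthase subunits passed. Among 151 zinc finger proteins tested 0 passed, with a median range of 0.32. Of 7 histone genes tested, H2aj, a replication-independent H2A, passed, at 8.96, 9.88 and 10.80 in the stable lines and 8.96, 10.02 and 10.83 in the unstable ones (adjusted p = 0.0121). Its other probe sets did not all share this order: a bright one measured 9.80, 9.19 and 10.03, with 9938 lowest, and a dimmer one 4.36, 5.07 and 5.44.

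**Figure D4:**
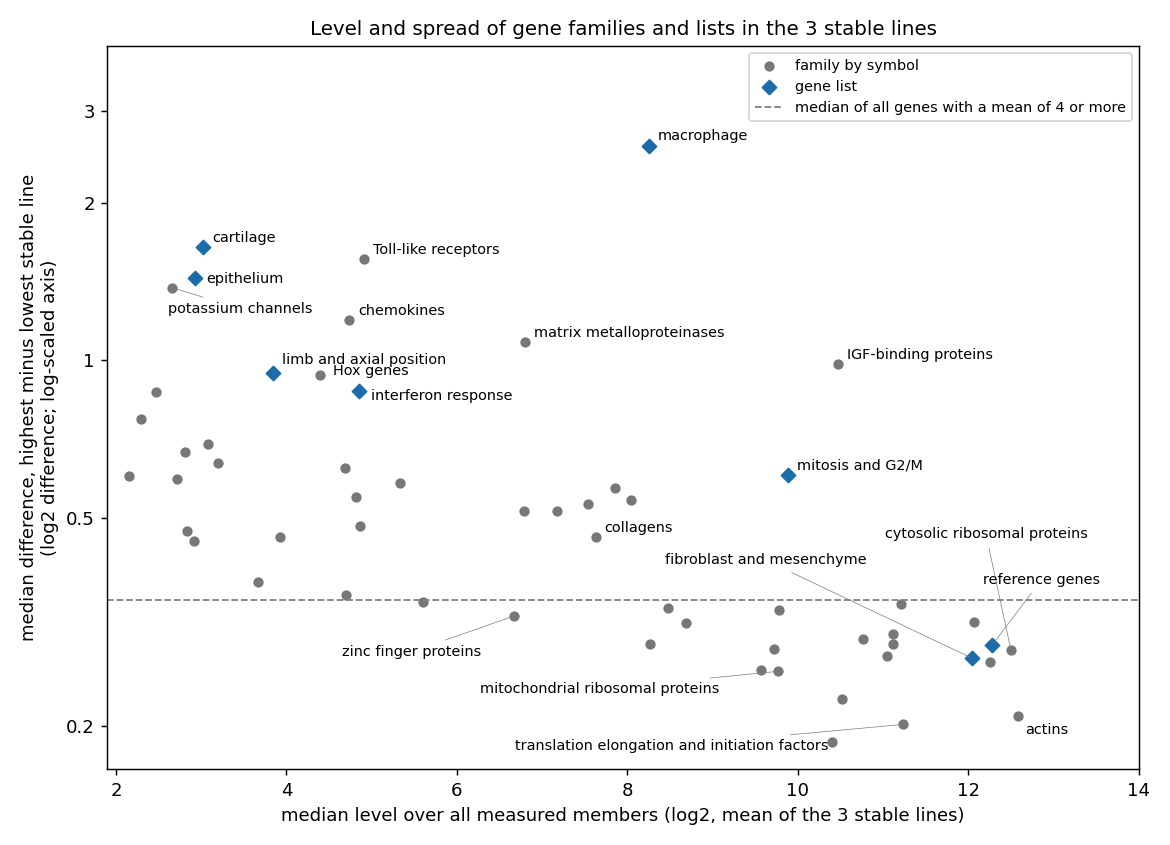
Median log2 level of each family or list over its measured members (x axis) against the median log2 difference between the highest and lowest stable line over members with a mean at the floor (y axis, log scale), for families (circles) with at least 5 such members and 8 gene lists (diamonds). Macrophage genes lie at 8.25 and 2.58, above every other labelled group, and ribosomal proteins, translation factors and actins lie at the lower right, under the dashed median of 0.35.

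Collagens show both behaviours within a family. Of 36 measured, 22 reached the floor in every stable line, and the median range was 0.46. Of 23 tested, 4 (17.4%) passed, beside 5.93% of all genes, and 0 without either 9515 line. The count holds Col2a1, kept largely by its level in the 9515 lines, so nothing is read from it. Those that passed were Col2a1 and Col11a1, described above, Col10a1 of hypertrophic cartilage (5.38, 4.18 and 4.47) and Col15a1 of basement membrane zones (8.63, 8.83 and 7.30). The bright Col3a1 (13.23, 13.12 and 13.25) and Col4a2 (13.07, 12.73 and 13.45) did not pass. Among IGF-binding proteins, secreted carriers of insulin-like growth factors, Igfbp4 passed, at 12.07, 11.46 and 10.84 (adjusted p = 0.0331), and Igfbp7 did not, at 12.30, 12.43 and 12.68.

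**Figure D5:**
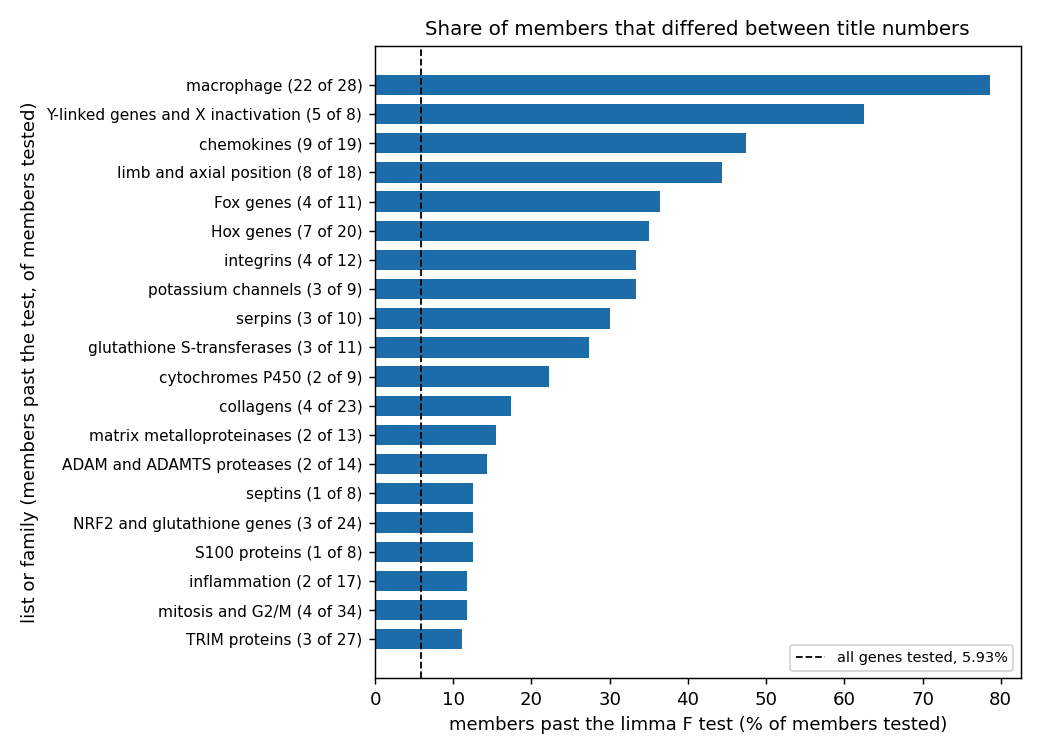
Share of tested members that differed between title numbers in the limma F test (x axis, percent) for the 20 lists and families of highest share among those with at least 8 tested members (y axis, counts in brackets), with the dashed line at 5.93% of all genes tested. Macrophage genes stand at 78.6%, chemokines at 47.4%, limb and axial genes at 44.4% and Hox genes at 35.0%. Without either 9515 line all of these are 0. Nothing is read from shares that hold Foxd1 or Col2a1, which were kept largely by their level in the 9515 lines. The chemokine and Hox shares also hold members kept through the lines where they were higher, and nothing is read from these. The macrophage share holds such members too and is a description.

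A second probe set was available as a check for some genes. Of the 778 genes 2-fold apart among the stable lines, 176 had another probe set with a level at the floor. It gave the same sign for 170 of them and a difference of at least 1 for 114. Ctr9, a subunit of an elongation complex, was chosen after its values were seen as a case where probe sets disagree. Its brightest probe set measured 6.94, 6.06 and 11.07 in stable lines 9515, 9938 and 10074. Other Ctr9 probe sets measured 4.93, 4.99 and 4.97, and 6.01, 6.49 and 5.78, without the high value in 10074.

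No gene passed the comparison of stable with unstable lines, which pools BubR1H/H and CDC20AAA/AAA. The limma fit without a term for title number called 0 of 8382 genes (0%). It leaves differences between title numbers in its spread, and had 359 genes at an unadjusted p under 0.05 and a smallest adjusted p of 0.999. With the title number as a block it also called 0, with 1019 at an unadjusted p under 0.05. Bub1b was 1.45 (SE 0.31) higher in stable lines, with an adjusted p of 0.999 without and 0.265 with that block.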

How the data were processed

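RNA of 6 mouse embryo fibroblast lines was hybridised to Affymetrix arrays, 1 per line, of which the 3 lines labelled stable are described. The deposited values were log2 levels that the authors made with GCRMA 2.28.0 in R 2.15.3, per the submitters' processing notes. GCRMA corrects background by probe sequence and makes the arrays' distributions alike, so a shift of the whole transcriptome would not be seen. The genome build behind the probe annotation is not given in the sources used here, and scanner intensities were not analysed here. The platform annotation paired 20380 of 22626 probe sets with a sole gene, 691 with more than 1, and left 1555 out; 20351 matched RefSeq on GRCm38.p6, which also gave chromosomes and promoters. For each of 12393 genes, 4956 of them with several probe sets, the probe set of greatest average signal was kept. Near copies such as Lyz1 and Lyz2, the Ms4a6 genes and class I genes may cross-hybridise.

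Ranges were taken as the highest minus the lowest stable line, for genes with a mean of at least 4. The 8382 genes that reached 4 on 3 or more arrays were tested with limma 3.58.1 in R 4.3.3, with title number and stability as terms, Benjamini-Hochberg adjustment and a threshold of 0.05. The step was tested on simulated data. Tables were made with Python 3.11.15 and pandas 2.3.3. Stable and unstable lines were compared without and with the title number as a block. The numbers, taken from the titles, pair the lines: deviations from the group mean over 8382 genes correlated at 0.812, 0.681 and 0.602 for same-numbered lines and at -0.673 to 0.153 for others.

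Members and lists were chosen with earlier results of these data known. Genes were named by a rule: the marker and checkpoint genes, the 20 of highest mean, the 20 of widest stable range that passed with the same order in both sets, the members of highest mean and widest range of each list, the 10 steadiest, and members above the floor in lists mostly below it. Other names, mostly defining markers and members that did or did not pass, were chosen after their values were seen. Alternatives were another filter, probe set rule, normalization, prior or model, and leaving out lines.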

Additional observations from a re-analysis of the deposited data

How the results depend on the processing

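The count of genes at the floor moved by less than 1.5 times under all 8 alternatives, and stable against unstable lines gave 0 genes under all 12, with the title number as a replicate block (0) among them. The block was run for that comparison alone. Genes differing between title numbers went from 497 to 953 with a trended, robust prior and to 249 without the term for stability, all 249 of them among the 497, and ranged from 1 to 630 with a line or title number left out. The counts were 1 without either 9515 line and 2 without both, in fits with fewer arrays. For 9938 against 9515 leaving out lines gave 1 to 562, with 283 without unstable line 9938. For 10074 against 9515 the prior gave 759 and leaving out lines 0 to 630, with 212 without stable line 10074. For 10074 against 9938 the count was 12 with no filter, 21 with a filter at 6, 8 with probe sets averaged and 218 with that prior, and 2 to 13 with lines left out (10 without stable line 10074); the cause was not tested. Genes 2-fold apart numbered 465 with a floor of 6, which keeps fewer genes, and 231 to 517 with 1 stable line left out (511 without 10074). Macrophage members past the test were 19 to 28 in the alternatives that kept both 9515 lines. Of adjusted p-values of single named genes, 318 kept their side of the threshold, 62 lost it and 7 gained it. With 1 array per line and 2 residual degrees of freedom, small differences could not be told from noise, and values near the floor have no reliable order.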

Other observations

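Some genes were almost level over the 3 stable lines. Among genes with a mean of at least 8, the 10 with the smallest range included Ndufv3, a complex I subunit (11.23, 11.22 and 11.23 in lines 9515, 9938 and 10074), and Kdelr2, which returns proteins to the endoplasmic reticulum (12.39, 12.40 and 12.39). They also included Eif3a, a translation initiation factor (12.62, 12.61 and 12.61), Cox4i1 of cytochrome oxidase (12.33, 12.32 and 12.32) and Rps27l, a ribosomal protein copy (12.48, 12.49 and 12.48). Of the reference genes, Sdha had the smallest range at 0.04, with levels of 11.79, 11.80 and 11.83. These values are a description of 3 arrays.

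A few bright genes belong to families otherwise near the floor. Cryab, a small heat shock protein of the crystallin family, measured 12.37, 11.89 and 12.45, while 3 of 16 crystallins reached the floor in every stable line. Klk8 was the 1 of 16 kallikreins that did so.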
